A study of Bos taurus with 45 samples.

Results

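Sections of Day 16 bovine conceptuses were cultured for 12 h either alone or lying on endometrium, and the transcripts of both kinds of section from the same conceptus were compared. The members are the 16 conceptus libraries, of 45 libraries in the series, that come from the 7 conceptuses with both cultures: 7 mono-cultured sections (IVD Conc) and 9 co-cultured sections (Endo-IVD Conc conceptus). They were chosen by the conceptus number in the library names, and no measured value entered the choice. The one other conceptus library, from conceptus 5, has no co-cultured partner here and was left out. All conceptuses came from estrus-synchronized, pubertal Angus-Holstein heifers inseminated with semen of a single Angus bull, and all explants came from Day 16 intercaruncular endometrium of synchronized heifers that were not bred, so the endometrium had not met a conceptus before the culture. Both cultures used RPMI medium with dialyzed, heat inactivated fetal bovine serum and an antibiotic and antimycotic mix and were kept under atmospheric oxygen. A section is a small cut piece that can hold trophectoderm, hypoblast and, in some pieces, embryonic disc, and where along the conceptus each piece was cut is not stated in the methods used here.

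At this stage the ruminant conceptus is a long filament whose outer layer, the trophectoderm, secretes interferon tau (IFNT), the signal that keeps the corpus luteum alive, together with pregnancy-associated glycoproteins (PAG), trophoblast Kunitz domain proteins (TKDP) and prostaglandins. The inner layer, the hypoblast, makes apolipoproteins and other serum-type proteins. Filament growth relies on what the uterine glands secrete, on glucose and amino acid uptake, and on a large secretory pathway in which proteins are made on ribosomes, enter the endoplasmic reticulum (ER), are folded and glycosylated there and then leave for the Golgi.

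Libraries held 65.49 to 104.4 M counts in mono-culture and 58.58 to 92.01 M in co-culture. The 9 co-cultured sections lay on explants of 6 uteri. Conceptus 26 was cultured on uteri 14 and 39, conceptus 47 on uteri 19 and 54, conceptus 8 on uterus 14, conceptus 22 on uterus 19, conceptuses 50 and 66 both on uterus 38, and conceptus 71 on uterus 70. Names of mono-cultured sections carry a heifer number too, 14 for conceptus 26 and 19 for conceptus 47. The co-cultured sections on uteri 39, 54 and 70 are therefore paired with a mono-cultured section named with another heifer number. What this adds to their differences was not tested. Conceptuses that share a uterus form 4 culture sets, and as p-values treat the 7 conceptuses as independent, they do not cover what a shared uterus adds. Levels are CPM, the usual count scaled to a common library size, here after correction by the trimmed mean of M-values (TMM), with no correction for gene length, so they are compared between sections for 1 gene and not between genes. TMM factors were 0.743 to 1.08 in co-culture and 1 to 1.23 in mono-culture, and the 10 most abundant genes took 9.24% to 12.7% of counts against 7.64% to 10.5%. The section of conceptus 47 on uterus 54 and that of conceptus 26 on uterus 39 had the lowest factors, 0.743 and 0.846.

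Among the lists examined, rises were most frequent for the cytosolic ribosome (72 of 78 genes), hypoxia targets (20 of 40) and ER protein folding (17 of 41), and falls for chromatin and transcription cofactors (21 of 69) and DNA replication and repair (14 of 51). Of 14722 genes tested, 1157 were more and 1069 less abundantly expressed in co-cultured sections at an adjusted p of at most 0.05 (edgeR quasi-likelihood test with the conceptus as block, Benjamini-Hochberg), which is 15.1% of genes. By more than 2-fold, 207 were higher and 160 lower. Of the 1157 and 1069 called genes, 859 and 802 moved the same way in 7 of 7 conceptuses. Among all genes tested 2381 did so (16.2%). The test is paired on the same conceptuses, so agreement in direction among called genes is partly set by the selection. The levels of the 7 mono-cultured and 9 co-cultured libraries did not overlap for 196 of the genes tested (1.33%). The count of calls depended on single conceptuses: without conceptus 8 it was 265 more and 321 less, without conceptus 26 it was 336 and 399, without conceptus 47 it was 222 and 257, without conceptus 71 it was 251 and 270, and without conceptus 66 it was 755 and 819. With 1 co-cultured section per conceptus, it was 487 and 414 when the sections on uteri 14 and 19 stood for conceptuses 26 and 47, and 916 and 1125 with those on uteri 39 and 54, a choice made after seeing the data. When the co-cultures of conceptuses 26 and 47 were not summed and the 16 libraries entered singly with the conceptus block, 323 and 320 genes were called, with 0 ribosomal genes, 10 hypoxia targets and 5 ER folding genes higher, and 3 cofactors and 4 repair genes lower. With the culture sets as the unit it was 433 and 763, and the corresponding list counts were 34, 10, 6, 18 and 8. Without the set of conceptuses 8 and 26 no gene was called by the edgeR test (smallest adjusted p 0.098), although 1602 genes were higher and 1555 lower at an unadjusted p below 0.05. Without the set of conceptuses 22 and 47 there were 142 and 167 calls. Scaling by library totals, which lowers the median of all genes by 0.157 on the log2 scale, turned the share of calls that were higher from 52% to 21.6% (559 more and 2034 less), so directions below are relative to the typical gene.

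**Figure D1:**
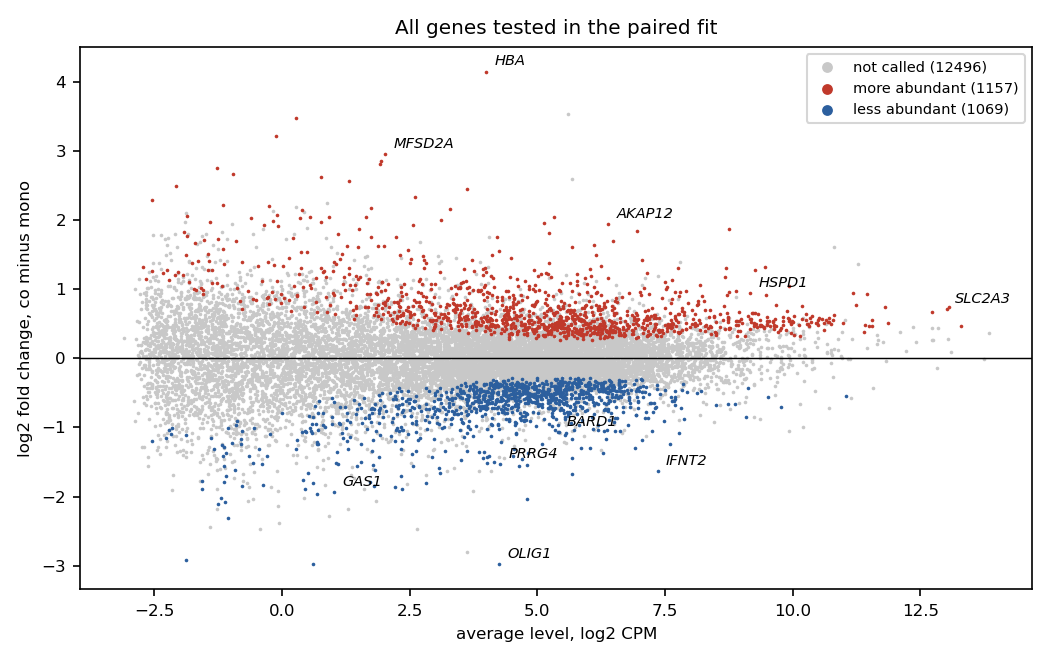
Log2 fold change of co-cultured over mono-cultured sections (vertical axis) against the average level in log2 CPM (horizontal axis), 1 point for each of the 14722 genes tested, with called genes in red (1157 more abundant) and blue (1069 less abundant). Calls lie on both sides at all levels, and HBA stands highest among the called genes at 4.15.

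The second principal component of the 1000 most variable genes separated the cultures within conceptuses. It held 9.81% of the variance and was higher in co-culture in 7 of 7 conceptuses, by 21.7 ± 9.91 score units (SD, n = 7; exact sign-flip permutation test, two-sided p = 0.0156, the smallest that 7 conceptuses allow; adjusted over 3 components 0.0469). Its highest loadings were of HBA and HBM, both globin genes, and its lowest were of CALCRL, a receptor subunit for adrenomedullin, and OLIG1, a transcription factor. The first component, with 53% of the variance, was higher in 3 of 7 conceptuses (exact sign-flip p = 0.719). In both cultures the sections of conceptuses 47, 71 and 8 were on its low side and those of conceptuses 22 and 50 on its high side, while conceptus 66 was between them in mono-culture and on the high side in co-culture.

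Trophoblast markers were abundant in the sections of both cultures. Summed markers of endometrial epithelium, stroma, endothelium and leukocytes were below their level in the explants, whereas those of smooth muscle overlapped it. The sums do not run over the same members in both tissues. In sections and explants they held 12 and 20 genes for stroma, 12 and 17 for endometrial epithelium and 11 and 14 for endothelium. Leukocyte sums held 15 and 26 genes and erythroid sums 5 and 17. Smooth muscle sums held 8 in both, and those of trophoblast transcription factors and keratins 27. How much of the gaps the extra members make up was not tested. Summed CPM over the trophoblast transcription factors and keratins was 15960 to 27530 in mono-cultured and 19870 to 45310 in co-cultured sections, against 1074 to 2474 in the 9 explants under them, whose counts were made with another aligner. Stromal markers summed to 50.26 to 450.9 and 49.03 to 905.7 in the sections and to 5059 to 11870 in the explants. Stromal genes differed in this. The fibrillar collagen gene COL3A1 reached at most 0.57 CPM in any section, against 706 to 2250 in the explants, and decorin (DCN) at most 2.02 against 1680 to 4550. MMP2, a matrix protease, reached 493 CPM in a section against 156 to 552 in the explants, and FBLN1, a matrix glycoprotein, 345 against 259 to 877, and neither was called (adjusted p = 0.0664 and 0.167). The summed list of endothelial markers was 32.42 to 72.88 in mono-culture, 58.22 to 98.03 in co-culture and 2096 to 3612 in explants. Leukocyte markers summed to 32.68 to 164.7, 30.19 to 198 and 659.4 to 1252. Endometrial epithelium markers summed to 75.05 to 110.6, 62.92 to 321.6 and 629.5 to 1707. Their sum was higher in co-culture in 6 of 7 conceptuses, by a mean of 0.78 on the log2 scale (exact sign-flip p = 0.0469, adjusted over 10 lists 0.117). Smooth muscle markers summed to 44.5 to 965.9, 49.63 to 1122 and 468.6 to 9234. The erythroid sum was higher in co-culture in 7 of 7 conceptuses, by a mean of 1.87 on the log2 scale, and so was the sum of trophoblast transcription factors and keratins, by 0.39 (exact sign-flip p = 0.0156, adjusted over 10 lists 0.0781, for both). The keratins KRT8, KRT18 and KRT19 make up most of the latter sum, and the median over the genes of that list was -0.44. As 0.0156 is the smallest p that 7 conceptuses allow, a single list cannot pass the adjustment, and the adjusted values say nothing on whether the lists differ.

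**Figure D2:**
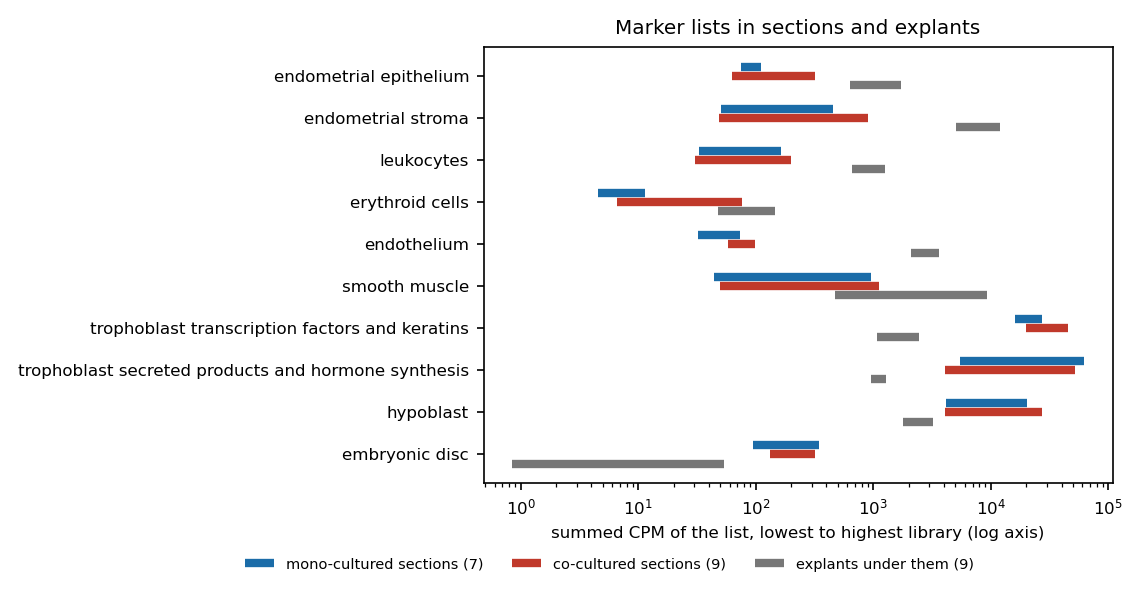
Summed CPM of 10 marker lists on a log axis, each bar running from the lowest to the highest library of the 7 mono-cultured sections (blue), the 9 co-cultured sections (red) and the 9 explants under them (grey). Stroma and endothelium of the explants lie far above the sections (5059 to 11870 against at most 905.7 for stroma), and the erythroid bar of co-cultured sections (6.657 to 77.19) reaches that of the explants (47.56 to 145.5). The explant sums of these lists run over more genes than the section sums (20 against 12 for stroma).

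The largest rise was that of HBA, the alpha globin chain of hemoglobin. HBA was at 0.412, 0.918 and 2.02 CPM (lowest, median, highest) in mono-culture and at 1.15, 34.1 and 68.4 CPM in co-culture, a log2 fold change of 4.15 ± 0.74 (SE; adjusted p = 0.0140), higher in 7 of 7 conceptuses. The 2 sections on uterus 38, of conceptuses 50 and 66, were at 1.15 and 1.62 CPM, within the mono-cultured range, and the other 7 co-cultured sections were at 11.3 to 68.4 CPM, all above it. The explants held 40.8 to 139 CPM, those of uterus 38 being the lowest at 40.8 and 44.4. HBM, another alpha-type globin, was at 0.0641 to 0.215 CPM in mono-culture and 0.0263, 1.62 and 3.98 CPM in co-culture, with a log2 fold change of 3.22 ± 0.83 (adjusted p = 0.0344), higher in 6 of 7. The same 2 sections were at 0.0263 and 0.121 CPM, and the explants were at 2.87 to 8.19. Globin copies are near identical, so reads may be split between them. HBA kept its call without each conceptus in turn, whereas HBM lost it without conceptus 8, 22, 26, 47 or 71. Of the 5 erythroid markers tested, these 2 were called and the median was 0.85. ALAS2, which starts heme synthesis in red cell precursors, had means of 3.40 CPM in mono-culture and 1.7 CPM in co-culture (-1.58 ± 0.74, adjusted p = 0.173). The part of blood cells from the explants in the rise of HBA was not tested.

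TIE1 and EGFL7, genes best known from vessel walls, also rose, as did CAV1. TIE1, an endothelial receptor kinase, was at 0.192 to 1.2 CPM (median 0.366) in mono-culture and 0.696 to 8.1 CPM (median 1.65) in co-culture, a log2 fold change of 1.97 ± 0.30 (adjusted p = 0.0101), and EGFL7, a secreted endothelial factor that trophoblast also makes, rose from a median of 9.46 to 22.4 CPM (1.29 ± 0.26, adjusted p = 0.0174). CAV1, the coat protein of caveolae, is described as 1 of the 12 largest rises and is not in the list of endothelial markers. It had medians of 1.01 and 2.82 CPM, with a log2 fold change of 2.18 ± 0.40 (adjusted p = 0.0150). The groups overlapped for all 3 genes. The explants held 48.2 to 92.3 CPM of TIE1 and 215 to 702 of EGFL7. CDH5, the endothelial cadherin, was not called (1.45 ± 0.77, adjusted p = 0.223). It was at 0 to 0.134 CPM in the co-cultured sections of conceptuses 47 and 71, at 1.64 to 20.8 CPM in the others and at 547 to 984 CPM in the explants. Of the 9 endothelial markers tested only TIE1 and EGFL7 were called (median 0.87, against -0.00111 over all genes). Of the 9 values 6 were above 0, and the lowest was -1.10. TIE1 and CAV1 held their calls without each conceptus in turn, and EGFL7 lost its call without conceptus 47 or 71. In bulk tissue, more cells of a type and more RNA per cell cannot be told apart.

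The list with the largest share of called members was the cytosolic ribosome, the machine that makes proteins, although the medians of the hypoxia, endothelial and erythroid lists were larger. Of 78 ribosomal protein genes tested, 72 were more abundant in co-culture and none less, against 7.86% and 7.26% of all genes, and their median log2 fold change was 0.51. All 78 values were above 0, from 0.24 to 0.73. RPLP2, of the stalk that binds elongation factors, was at 467, 572 and 654 CPM in mono-culture and 640, 813 and 1890 CPM in co-culture (0.59 ± 0.12, adjusted p = 0.0162). RPL36A, a large subunit protein, went from a median of 276 to 384 CPM (0.60 ± 0.12, adjusted p = 0.0162) and RPLP0, the anchor of that stalk, from 2490 to 3230 CPM (0.46 ± 0.11, adjusted p = 0.0285). Each of the 3 was higher in 7 of 7 conceptuses, with overlapping groups, and lost its call without conceptus 8 or 47 (RPLP0 also without 26 or 71). The median over the list was above 0 on every co-cultured section, from 0.13 for conceptus 22 on uterus 19 to 1.08 for conceptus 26 on uterus 39 and 1.64 for conceptus 47 on uterus 54, the 2 sections with the lowest TMM factors. The calls depended on single conceptuses while the median changed little: without conceptus 8, 26, 47 or 71 there were 0, 2, 1 and 3 called members, with medians of 0.53, 0.47, 0.42 and 0.54. Without conceptus 66 there were 50. None was called by the edgeR test with the 16 libraries entered singly, with the conceptus block (median 0.56, smallest adjusted p 0.0841, 69 higher at an unadjusted p below 0.05) or without it (median 0.65, smallest adjusted p 0.0630, 76 higher unadjusted), 34 were with the culture sets as the unit, and 25 with only the sections on uteri 39 and 54 for conceptuses 26 and 47. Ribosomal protein genes have many near-identical pseudogenes, so their counts are uncertain.

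Translation factors moved less. Of 43 tested, 14 rose and none fell (median 0.20). EIF4A2, a helicase that opens mRNA for the ribosome, was at 207, 246 and 377 CPM in mono-culture and at 296, 484 and 842 CPM in co-culture (0.91 ± 0.16, adjusted p = 0.0127). EEF1D, an exchange factor for elongation, had medians of 295 and 427 CPM (0.65 ± 0.12, adjusted p = 0.0154). EIF3K, a subunit of the scaffold that recruits ribosomes, was at 116 to 148 CPM in mono-culture and 150 to 336 CPM in co-culture, so its groups did not overlap (0.49 ± 0.10, adjusted p = 0.0167). Its call was lost without conceptus 8 or 47, and the list had 2, 4, 2 and 3 rises without conceptus 8, 26, 47 or 71 and 7 without conceptus 66.

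Genes that build ribosomes did not share this direction. Of 40 biogenesis genes, 5 rose (NPM1, DDX10, POLR1D, UTP14A and DDX21) and 6 fell (POLR1B, POLR1A, NIP7, LTV1, UBTF and NOC2L), with a median of -0.12. NPM1, a nucleolar chaperone, rose from a median of 439 to 658 CPM (0.57 ± 0.11, adjusted p = 0.0162). POLR1B, the second largest subunit of RNA polymerase I, which transcribes ribosomal RNA, was at 29.4, 42.4 and 47.1 CPM in mono-culture and 15.0, 22.4 and 34.6 CPM in co-culture (-0.68 ± 0.10, adjusted p = 0.00984), lower in 7 of 7. POLR1A, its largest subunit, had medians of 38.2 and 24.6 CPM (-0.67 ± 0.13, adjusted p = 0.0171) and NIP7, a factor for pre-ribosomal RNA processing, 13.4 and 7.22 CPM (-0.75 ± 0.16, adjusted p = 0.0195). The amino acid loading enzymes, the aminoacyl-tRNA synthetases, had 1 rise (QARS1) and 1 fall (FARSA) of 20, or 10% called against 15.1% of all genes. POLR1B kept its call without each conceptus in turn. NPM1 lost it without conceptus 8 or 47, POLR1A without 8, 47 or 71, and NIP7 without 8, 26, 47 or 71. The biogenesis list had at most 3 rises and 4 falls without conceptus 8, 26, 47, 66 or 71, but 3 rises and 11 falls without conceptus 50 and 8 rises and 3 falls without conceptus 22.

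Most mitochondrial genes were not called. The share called higher was near that of all genes for complex I and above it for complexes II to IV and ATP synthase. Among nuclear genes of the respiratory chain, 4 of 38 complex I subunits rose (NDUFB6, NDUFB8, NDUFA3 and NDUFB11), and 7 of 39 subunits of complexes II to IV and ATP synthase. These are 10.5% and 17.9%, against 7.86% of all genes called higher. None was less in either list, and the medians were 0.22 and 0.32. ATP5F1C, a central shaft subunit of ATP synthase, was at 136, 159 and 190 CPM in mono-culture and 176, 220 and 434 CPM in co-culture (0.50 ± 0.10, adjusted p = 0.0193). NDUFB6, an accessory subunit of complex I, was at 48.4 to 54 CPM and 56.7 to 149 CPM, with no overlap (0.50 ± 0.10, adjusted p = 0.0199). Both calls were lost without conceptus 26, 47 or 71, and that of NDUFB6 also without conceptus 8. The lists were carried by few sections: the median over complexes II to IV and ATP synthase was 1.27 for conceptus 47 on uterus 54, 0.75 for conceptus 26 on uterus 39 and 0.56 for conceptus 50, and between -0.02 and 0.21 for the other 6 sections. Without conceptus 26 or 47 none of these 39 genes was called by the edgeR test, with 15 and 11 higher unadjusted, and 1 was without conceptus 8 or 71. No complex I gene was called by the edgeR test without conceptus 8, 26, 47 or 71, with 20, 14, 9 and 15 higher at an unadjusted p below 0.05, and 2 were without conceptus 66. The mitochondrial ribosome had 12 rises of 75 and 1 fall (17.3% called, against 15.1% of all genes). MRPL17, of its large subunit, was at 31.3 to 42.9 CPM in mono-culture and 50.4 to 187 CPM in co-culture (0.94 ± 0.15, adjusted p = 0.0110), whereas MRPL49 fell from a median of 36.7 to 24.6 CPM (-0.56 ± 0.09, adjusted p = 0.0114). Both held their calls without each conceptus in turn, and the list had 4, 4, 2 and 2 rises without conceptus 8, 26, 47 or 71.

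**Figure D3:**
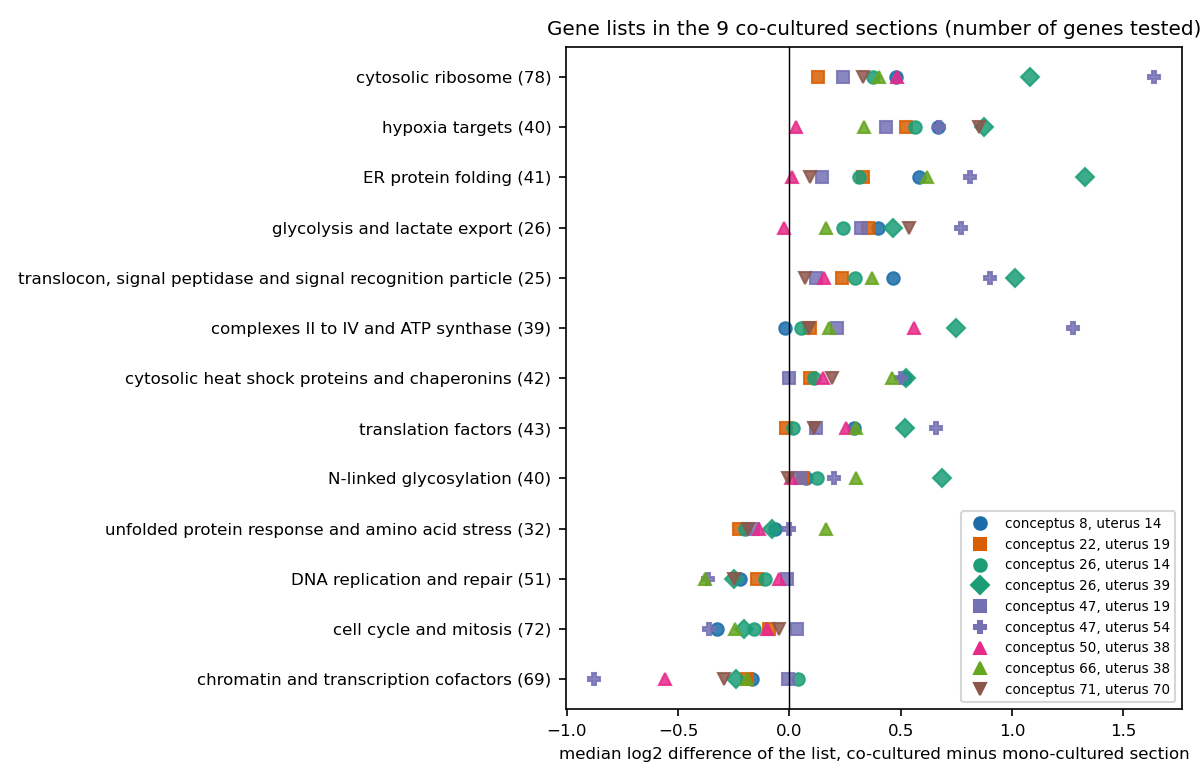
Median log2 difference of 13 gene lists (co-cultured minus mono-cultured section of the same conceptus) in each of the 9 co-cultured sections, with the number of genes tested in brackets, colors for conceptuses and symbols for uteri. The ribosome median runs from 0.13 to 1.64 and is above 0 in every section, and the section of conceptus 47 on uterus 54 lies at the outer edge for the ribosome (1.64), complexes II to IV (1.27) and chromatin cofactors (-0.88).

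Part of the genes that fold secreted proteins in the ER was called, mostly upward. Of 41 ER folding genes, 17 rose and 1 fell (TMX3), with a median of 0.46 and 38 values above 0. FKBP10, a prolyl isomerase that folds collagens, was at 14.2, 28.1 and 67.4 CPM in mono-culture and 26.2, 57.3 and 106 CPM in co-culture (0.97 ± 0.15, adjusted p = 0.0110), and its relative FKBP7 had medians of 9.39 and 20.4 CPM (1.02 ± 0.15, adjusted p = 0.00984). PDIA5, a disulfide isomerase, went from a median of 60.0 to 102 CPM (0.74 ± 0.12, adjusted p = 0.0112). These 3 rose in 7 of 7 conceptuses and kept their calls without each conceptus in turn. ERO1A, the oxidase that supplies disulfide bonds, was at 198, 407 and 533 CPM in mono-culture and 182, 982 and 1490 CPM in co-culture (1.33 ± 0.23, adjusted p = 0.0127), with the section of conceptus 50 at 182 CPM against 198 in its mono-cultured partner and all other co-cultured sections at 876 or more. HSP90B1, the ER member of the HSP90 family, had medians of 1910 and 2870 CPM (0.93 ± 0.23, adjusted p = 0.0315, lost without conceptus 8, 22, 26, 47 or 71).

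HSPA5, the main ER chaperone (BiP), was not called, with a log2 fold change of 1.61 ± 0.48 (adjusted p = 0.0521), although it passed when conceptus 50 was left out. It was at 360, 588 and 1190 CPM in mono-culture. In co-culture it was at 12100 CPM for conceptus 26 on uterus 39, 5080 for conceptus 66, 3130 for conceptus 8, 2720 for conceptus 22 and 2100 for conceptus 47 on uterus 54. It was at 1030 CPM for conceptus 26 on uterus 14, 921 for conceptus 50, 404 for conceptus 47 on uterus 19 and 325 for conceptus 71, all within or below the mono-cultured range. Sections of the same conceptus on 2 uteri thus differed, at 1030 and 12100 CPM for conceptus 26 and 404 and 2100 CPM for conceptus 47. PDIA4, another disulfide isomerase of the ER, had the same high section, at 1840 CPM on uterus 39 against 304 on uterus 14 (0.98 ± 0.25, adjusted p = 0.0324, lost without conceptus 8, 22, 26, 47 or 66). The ER folding list had 7, 8 and 6 rises without conceptus 8, 26 or 47 and 11 without conceptus 22, 66 or 71.

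Fewer genes of ER entry and glycosylation were called. Of 25 genes of the translocon, signal peptidase and signal recognition particle, 8 rose and none fell (median 0.33). SSR2, a translocon-associated protein, was at 177, 259 and 276 CPM in mono-culture and 314, 357 and 787 CPM in co-culture, with no overlap (0.70 ± 0.13, adjusted p = 0.0142). SEC61B, a subunit of the channel itself, had medians of 179 and 264 CPM (0.63 ± 0.12, adjusted p = 0.0167). In N-linked glycosylation 12 of 40 rose and 4 fell (median 0.12, which turned to -0.0327 under scaling by library totals). OSTC and TMEM258, both subunits of the complex that hands the finished glycan to the protein, were at 89.1 to 115 and 39.4 to 45.4 CPM in mono-culture and 129 to 342 and 50.0 to 135 CPM in co-culture, each without overlap (0.70 ± 0.13 and 0.59 ± 0.12, adjusted p = 0.0153 and 0.0169). STT3A, DAD1, RPN1, RPN2, KRTCAP2 and TUSC3, of the same complex or its variant, also rose, as did PRKCSH, DPM3, GFPT1 and GNPNAT1 of other steps. DOLK, which makes the lipid carrier of the glycan, fell from a median of 26.5 to 17 CPM (-0.72 ± 0.15, adjusted p = 0.0183), as did ALG2, MAN1A2 and DPM2. Without conceptus 8, 26, 47 or 71 the translocon list had 2, 2, 1 and 3 rises and the glycosylation list 1, 2, 1 and 3, and with conceptus 66 left out they had 5 and 8. The glycosylation list had no fall without conceptus 8, 26, 47 or 71 by the edgeR test. SSR2 and OSTC kept their calls without each conceptus in turn, SEC61B lost it without conceptus 47, TMEM258 without 8 or 47 and DOLK without 8, 26, 47 or 71.

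Regulators of the unfolded protein response were mixed: 3 of 32 rose (PPP1R15A, MBTPS1 and CHAC1), 7 fell (ATF5, PPP1R15B, PSPH, ERN1, STC2, NUPR1 and PSAT1), and the median was -0.15. PPP1R15A (GADD34), the stress-induced subunit of the phosphatase that restarts translation, was at 6.04, 34.9 and 61.6 CPM in mono-culture and 24.1, 84.8 and 245 CPM in co-culture (1.64 ± 0.29, adjusted p = 0.0134). Its constitutive relative PPP1R15B went the other way, from 39.2 to 69 CPM down to 9.63 to 38.7 CPM with no overlap (-0.75 ± 0.13, adjusted p = 0.0115). ATF5, a transcription factor of the amino acid and mitochondrial stress responses, fell from a median of 12.5 to 4.51 CPM (-1.35 ± 0.22, adjusted p = 0.0114). MBTPS1, the protease that cuts ATF6 and the sterol regulators, rose without overlap, from 58.3 to 87.0 CPM up to 93.0 to 128 CPM (0.63 ± 0.11, adjusted p = 0.0141). All 4 held their calls without each conceptus in turn. The list as a whole had 2 rises and 2 falls without conceptus 8, 26, 47, 66 or 71.

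Of 42 cytosolic and mitochondrial chaperones, 14 rose and none fell (median 0.24). HSPD1 and HSPE1, the partner chaperonins of the mitochondrial matrix, were at 318 to 443 and 170 to 226 CPM in mono-culture and 503 to 1210 and 248 to 599 CPM in co-culture, both without overlap (0.95 ± 0.14 and 0.70 ± 0.10, adjusted p = 0.0101 and 0.00984). FKBP4, a co-chaperone of steroid receptors, was at 215 to 366 and 401 to 949 CPM, also without overlap (0.96 ± 0.12, adjusted p = 0.00757). HSPB1, a small heat shock protein, rose from a median of 524 to 900 CPM (0.92 ± 0.15, adjusted p = 0.0114). All 4 were higher in 7 of 7 conceptuses and kept their calls without each conceptus in turn. The list had 8 rises without conceptus 8, 26 or 71 and 9 without conceptus 47 or 66. Of 32 proteasome genes none rose and 5 fell (PSMD12, PSMD1, ADRM1, PSMC4 and PSMD11), or 15.6%, against 7.26% of all genes called lower. None was called by the edgeR test without conceptus 8, 26, 47, 66 or 71. The largest of these falls was that of PSMD12 (-0.56 ± 0.13, adjusted p = 0.0252).

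Targets of the hypoxia-inducible factors (HIF), which respond to low oxygen, were called in part. Of 40 tested, 20 rose and 2 fell (TFRC and STC2), with a median of 0.60 and 36 values above 0. ADM, adrenomedullin, a vessel-relaxing peptide, was at 23.7, 44.5 and 115 CPM in mono-culture and 82.7, 166 and 321 CPM in co-culture (1.84 ± 0.30, adjusted p = 0.0113). BNIP3, which tags mitochondria for removal, was at 87.2, 158 and 280 CPM and then 137, 690 and 1190 CPM (1.87 ± 0.31, adjusted p = 0.0114). In BNIP3 the co-cultured section of conceptus 50, at 137 CPM, was the only one inside the mono-cultured range. DDIT4, an inhibitor of mTOR signaling, had medians of 367 and 850 CPM (1.28 ± 0.24, adjusted p = 0.0150) and PLOD1, a collagen lysine hydroxylase, 78.6 and 159 CPM (0.92 ± 0.12, adjusted p = 0.00813). FAM162A, a HIF target of mitochondria, had 78.2 and 167 CPM (0.95 ± 0.15, adjusted p = 0.0101). These 5 rose in 7 of 7 conceptuses and kept their calls without each conceptus in turn. The median of the list was 0.03 in the section of conceptus 50 and 0.34 to 0.87 in the other 8.

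Not all known targets moved. VEGFA, the vascular growth factor, had medians of 72.0 and 101 CPM (0.24 ± 0.14, adjusted p = 0.262) and SLC2A1, the ubiquitous glucose transporter, 860 and 1030 CPM (0.17 ± 0.13, adjusted p = 0.367). TFRC, the transferrin receptor, fell from a median of 102 to 44.0 CPM (-1.04 ± 0.15, adjusted p = 0.00984), and FTL, the ferritin light chain, which stores iron, rose from 1240 to 1830 CPM (0.52 ± 0.12, adjusted p = 0.0232, lost without conceptus 8, 26, 47 or 71). Among 15 HIF factors and regulators, EPAS1, the HIF-2 alpha subunit, fell from a median of 582 to 419 CPM (-0.85 ± 0.20, adjusted p = 0.0261), while EGLN1 and EGLN3, the oxygen-sensing hydroxylases that mark HIF for removal, and ELOC rose (0.42 ± 0.10, 0.63 ± 0.14 and 0.36 ± 0.09, adjusted p = 0.0282, 0.0229 and 0.0315). The calls of EGLN1, EGLN3, ELOC and EPAS1 were each lost without conceptus 8, 26 or 71, those of EGLN1 and ELOC also without conceptus 47, and that of ELOC also without conceptus 66. The hypoxia list had 9, 9, 11 and 8 rises without conceptus 8, 26, 47 or 71.

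Of 26 genes of glycolysis and lactate export, 9 rose and 1 fell (median 0.37). SLC16A3, the lactate exporter MCT4, was at 15.3, 42.8 and 56.2 CPM in mono-culture and 29.2, 82.2 and 118 CPM in co-culture (0.96 ± 0.10, adjusted p = 0.00695), and every co-cultured section except that of conceptus 50 was above the highest mono-cultured one. ENO1, enolase, had medians of 3110 and 4490 CPM (0.52 ± 0.10, adjusted p = 0.0162, lost without conceptus 8, 47 or 71), and LDHB, a lactate dehydrogenase, 362 and 485 CPM (0.44 ± 0.09, adjusted p = 0.0207, lost without conceptus 8, 26, 47 or 71). HK2, the inducible hexokinase, was at 17.6, 48.1 and 57.7 CPM in mono-culture and 9.56, 115 and 253 CPM in co-culture (1.16 ± 0.32, adjusted p = 0.0420, kept only without conceptus 50). SLC2A3, the high-affinity glucose transporter, rose from a median of 6160 to 8510 CPM (0.71 ± 0.19, adjusted p = 0.0405, lost without conceptus 8, 26, 47, 66 or 71). PFKFB2, which makes an activator of glycolysis, fell without overlap, from 6.89 to 8.53 CPM down to 2.00 to 5.54 CPM (-0.93 ± 0.14, adjusted p = 0.00984), and kept its call throughout, as did SLC16A3. Without conceptus 8, 26, 47 or 71 the list had 1, 2, 1 and 1 rises, without conceptus 22 it had 5 and without conceptus 66 it had 6. In the TCA cycle 1 of 25 rose (IDH3G) and 1 fell (OGDH), or 8% called against 15.1% of all genes.

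**Figure D4:**
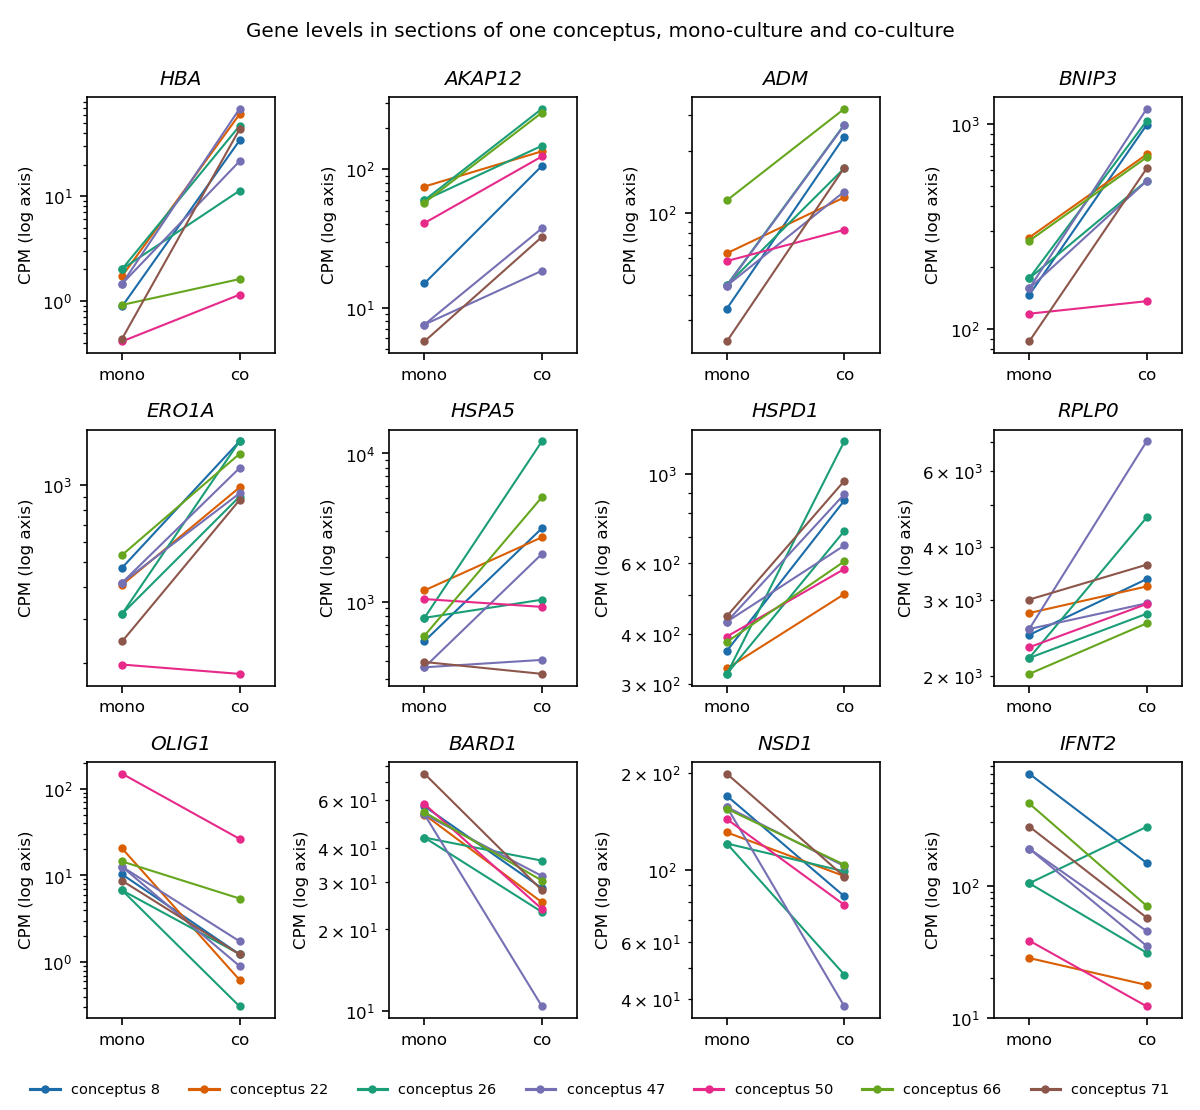
CPM on a log axis of 12 genes in mono-cultured and co-cultured sections, 1 line for each of the 9 pairs of a co-cultured section and the mono-cultured section of its conceptus, with 2 lines for conceptuses 26 and 47. HSPD1, RPLP0, BARD1 and NSD1 move the same way on every line, whereas in ERO1A the line of conceptus 50 goes from 198 to 182 and in HSPA5 the lines of conceptuses 50 and 71 go down.

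Calls among nuclear regulators were mostly downward. Of 69 chromatin and transcription cofactor genes tested, 21 fell and 2 rose (NSD3 and KDM6B), with a median of -0.25. MED23, a Mediator subunit, was at 32.6, 35.5 and 45.1 CPM in mono-culture and 12.8, 23.2 and 28.1 CPM in co-culture (-0.78 ± 0.09, adjusted p = 0.00704), and NSD1, a histone H3 methyltransferase, at 121, 155 and 199 CPM and 37.9, 95.6 and 104 CPM (-0.83 ± 0.11, adjusted p = 0.00807). Neither gene's groups overlapped. KMT2D, another histone methyltransferase, and BPTF, of a nucleosome remodeler, fell from medians of 120 to 71.0 and 89.8 to 52.2 CPM (-0.78 ± 0.11 and -0.80 ± 0.11, adjusted p = 0.00930 for both). All 4 were lower in 7 of 7 conceptuses and kept their calls without each conceptus in turn. The list median was -0.88 for conceptus 47 on uterus 54 and -0.56 for conceptus 50, but 0.04 for conceptus 26 on uterus 14 and -0.01 for conceptus 47 on uterus 19. Without conceptus 8, 26, 47 or 71 there were 12, 13, 10 and 10 falls.

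Most cell division and DNA repair genes were not called, and those that were mostly fell. Of 72 cell cycle genes, 13 fell and 4 rose (NUF2, CDK2, CDK6 and MAD2L1; median -0.21), and of 51 replication and repair genes 14 fell and 1 rose (POLD1; median -0.21). BARD1, the partner of BRCA1, was at 43.7, 54.2 and 75.2 CPM in mono-culture and 10.4, 27.9 and 35.9 CPM in co-culture, without overlap (-1.06 ± 0.11, adjusted p = 0.00695). BRCA2, a factor of DNA break repair, had medians of 29.1 and 17.7 CPM (-0.78 ± 0.12, adjusted p = 0.0110), and CLSPN, an adaptor of the replication checkpoint, 30.0 and 21.6 CPM (-0.61 ± 0.09, adjusted p = 0.0101). ANLN, a scaffold of the cleavage furrow, fell from 146 to 60.8 CPM (-0.81 ± 0.13, adjusted p = 0.0114), and CDC25A, a phosphatase that starts S phase, from 37.6 to 24.1 CPM (-0.83 ± 0.15, adjusted p = 0.0141). RRM2, which makes DNA precursors, fell from 115 to 77.5 CPM (-0.57 ± 0.10, adjusted p = 0.0129). These 6 kept their calls without each conceptus in turn.

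Not every member kept that direction. NUF2, a kinetochore protein, rose without overlap from 27.6 to 36.8 CPM up to 37.5 to 76.0 CPM (0.45 ± 0.09, adjusted p = 0.0166, lost without conceptus 47 or 71). Outside these lists PHLDA3, which restrains AKT signaling, fell from 24.8 to 85.6 CPM down to 5.35 to 24.7 CPM (-1.37 ± 0.19, adjusted p = 0.00984), also without overlap, and kept its call without each conceptus in turn. Without conceptus 8, 26, 47 or 71 the cell cycle list had 4, 4, 2 and 4 falls and the repair list 6, 7, 6 and 6, and without conceptus 66 the repair list had 7.

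Of the interferon tau transcripts, IFNT2 and IFN-tau-c1 fell in co-culture, with a wide spread between conceptuses. IFNT2 was at 28.3, 190 and 700 CPM in mono-culture and 12.2, 45.2 and 278 CPM in co-culture (-1.63 ± 0.37, adjusted p = 0.0256), lower in 7 of 7 conceptuses by their means. For conceptus 26 the section on uterus 14 was at 278 CPM, above the 104 CPM of the mono-cultured section, and that on uterus 39 at 31.0 CPM. IFN-tau-c1, another copy, had medians of 100 and 47.4 CPM (-1.16 ± 0.17, adjusted p = 0.00984) and kept its call without each conceptus in turn, whereas IFNT2 lost it without conceptus 8, 47 or 71. IFNT and IFNT3 were not called (-0.88 ± 0.37 and -0.99 ± 0.35, adjusted p = 0.132 and 0.0860), although IFNT3 passed without conceptus 22. Summed over the 5 IFNT genes the level was 468.6 to 5256 CPM in mono-culture and 130.9 to 3618 CPM in co-culture, a mean log2 difference of -1.10 ± 0.91 (SD, n = 7), lower in 6 of 7. These copies are near identical, so counts can be split between them. The sum over them does not depend on such a split, but how reads matching several copies were counted is not stated.

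The sums of the other secreted families differed in direction between conceptuses. The 3 TKDP genes summed to 1302 to 30370 CPM in mono-culture and 1658 to 24770 CPM in co-culture, a mean log2 difference of 0.00 ± 1.45 (SD, n = 7), higher in 2 of 7 conceptuses. The 8 PAG genes summed to 1486 to 15610 and 581.6 to 20010 CPM, with a difference of 0.20 ± 1.17, higher in 4 of 7. In conceptuses 22 and 26 both sums rose, and in conceptuses 50, 66 and 71 they and the IFNT sum fell. In that order, the IFNT sum went from 629.4 to 130.9, 3367 to 723.5 and 3980 to 2118 CPM. The TKDP sum went from 4251 to 1658, 24880 to 18650 and 23890 to 8231 CPM. The PAG sum went from 1775 to 581.6, 4972 to 3110 and 14220 to 11620 CPM. PTGS2, the inducible prostaglandin synthase, was at 1070, 4280 and 5080 CPM and 357, 2450 and 4770 CPM (-0.43 ± 0.27, adjusted p = 0.295). Folate receptor FOLR1 (0.41 ± 0.30, adjusted p = 0.380) and SMPDL3A, a phosphodiesterase (0.24 ± 0.22, adjusted p = 0.496), were not called. Of the 27 secreted product and hormone genes tested, TIMP2, an inhibitor of matrix proteases, rose (0.51 ± 0.10, adjusted p = 0.0172, lost without conceptus 8, 26, 47 or 71) and IFNT2 fell. Together these calls are 7.41% of the list, below the 15.1% of all genes.

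**Figure D5:**
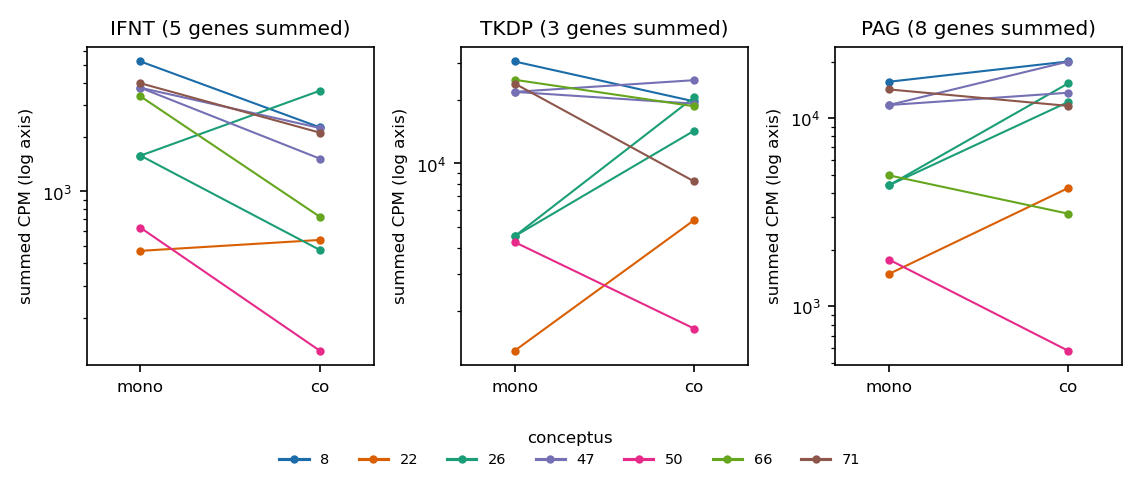
Summed CPM (log axes) of 5 IFNT, 3 TKDP and 8 PAG genes in mono-cultured and co-cultured sections, 1 line for each of the 9 pairs. The IFNT lines go down except those of conceptus 22 (468.6 to 538.6) and of conceptus 26 on uterus 14 (1580 to 3618), and the TKDP and PAG lines cross.

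Among 26 trophoblast transcription factors and keratins, 2 rose (KRT18 and TEAD4) and 2 fell (MSX2 and OVOL1), and the median was -0.44. The share called was 15.4%, near the 15.1% of all genes. KRT18, a keratin of simple epithelia, was at 3200, 3780 and 8750 CPM in mono-culture and 4640, 9030 and 16400 CPM in co-culture (0.67 ± 0.12, adjusted p = 0.0131), higher in 7 of 7. MSX2, a homeobox factor, fell from a median of 111 to 52.3 CPM (-0.90 ± 0.14, adjusted p = 0.0101), and OVOL1, which in the human and mouse placenta goes with trophoblast differentiation, from 38 to 28.4 CPM (-0.50 ± 0.10, adjusted p = 0.0198, lost without conceptus 47 or 71). TEAD4, required for trophectoderm in the mouse, had medians of 52.2 and 84.2 CPM (0.73 ± 0.20, adjusted p = 0.0389, lost without conceptus 8, 26, 47, 66 or 71). The list median differed by conceptus, from -1.26 in conceptus 50 and -1.06 in conceptus 66 to 0.90 in conceptus 22. Of 21 hypoblast genes, only FOXA2, an endoderm transcription factor, was called, with a rise from a median of 16.6 to 33.3 CPM (1.05 ± 0.20, adjusted p = 0.0159). This is 4.76% of the list, below the 15.1% of all genes. The hypoblast median was 1.34 in conceptus 66 and -0.56 to 0.13 in the other conceptuses. KRT18, MSX2 and FOXA2 kept their calls without each conceptus in turn.

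Of 40 interferon-stimulated genes tested, 2 rose (ISG20 and RSAD2) and 3 fell (PARP14, STAT2 and DTX3L), with a median of -0.14. The share called was 12.5%, near the 15.1% of all genes. ISG20, a nuclease, was at 0.0827, 0.844 and 3.02 CPM in mono-culture and 0.0535, 1.94 and 12.8 CPM in co-culture (1.63 ± 0.37, adjusted p = 0.0250, lost without conceptus 8, 26 or 71). PARP14, an ADP-ribosyl transferase, fell from a median of 5.90 to 1.32 CPM (-1.89 ± 0.39, adjusted p = 0.0198, lost without conceptus 26, 47 or 71), and STAT2, a partner of the interferon receptor, from 23.4 to 17.7 CPM (-0.42 ± 0.09, adjusted p = 0.0224, lost without conceptus 8, 26 or 47). BLA-DQB, an MHC class II chain, rose from 0.550, 1.10 and 2.08 CPM to 1.39, 4.57 and 10.2 CPM (1.87 ± 0.20, adjusted p = 0.00695), higher in 7 of 7 and kept without each conceptus in turn. The explants held 43.7 to 200 CPM of it. The study, with another fit, lists BLA-DQB among genes specific to co-cultured sections of in vitro produced conceptuses, whereas these conceptuses came from insemination. Of other class II markers, CD74 was not called (2.13 ± 0.74, adjusted p = 0.0806), and BOLA-DRA and BOLA-DQB were too low to be tested. Without conceptus 22 there were 9 falls in the interferon-stimulated list, and without conceptus 26 or 47 there was none.

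Nutrient and signaling genes moved one by one. Of 39 glucose and amino acid transporters, 6 fell (SLC38A7, SLC43A2, SLC1A1, SLC7A6, SLC7A9 and SLC7A11) and only SLC2A3 rose. Together these calls are 17.9% of the list, against 15.1% of all genes. The falls numbered 1 to 4 without conceptus 8, 22, 26, 47, 50 or 71 and 9 without conceptus 66. SLC38A7, a lysosomal glutamine and asparagine transporter, fell from a median of 29.5 to 14.0 CPM (-1.09 ± 0.17, adjusted p = 0.0101), SLC43A2, for large neutral amino acids, from 75.3 to 27.7 CPM (-1.30 ± 0.28, adjusted p = 0.0214, lost without conceptus 8, 26 or 71) and SLC1A1, a glutamate and aspartate transporter, from 338 to 196 CPM (-0.50 ± 0.10, adjusted p = 0.0198, lost without conceptus 47 or 71). All 3 were lower in 7 of 7 conceptuses. Of 28 genes of lipid uptake and storage 1 rose and 2 fell, and of 28 of cholesterol synthesis and uptake 2 fell. These are 10.7% and 7.14%, against 15.1% of all genes. The rise was that of ACSL1, from a median of 10.7 to 15.2 CPM (0.60 ± 0.17, adjusted p = 0.0419), higher in 7 of 7. ELOVL6, a fatty acid elongase, fell from 774 to 644 CPM (-0.70 ± 0.13, adjusted p = 0.0157), and STARD4, a cholesterol carrier, from 21.6 to 12.0 CPM (-0.79 ± 0.14, adjusted p = 0.0120). Both kept their calls without each conceptus in turn, as did SLC38A7.

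Of 35 TGF-beta, BMP and activin genes 4 were called (11.4%, against 15.1% of all genes). TGFB1, a ligand, was at 18.7, 37.0 and 54.5 CPM in mono-culture and 32.8, 80.0 and 121 CPM in co-culture (1.16 ± 0.23, adjusted p = 0.0168, lost without conceptus 47), higher in 6 of 7 with conceptus 50 the exception (38.9 to 32.8 CPM). TGFBR1, a type I receptor, fell from a median of 48.2 to 33.4 CPM (-0.63 ± 0.11, adjusted p = 0.0114), SMAD1, which carries BMP signals to the nucleus, from 167 to 69.5 CPM (-0.86 ± 0.18, adjusted p = 0.0211, lost without conceptus 8, 26, 47 or 71), and BMPR2 from 56.6 to 39.4 CPM (-0.45 ± 0.11, adjusted p = 0.0263, lost without conceptus 8, 47 or 71). The other 31 of 35 genes of this list were not called. IGF2, the fetal growth factor, rose from a median of 93.5 to 194 CPM (1.03 ± 0.16, adjusted p = 0.0112), higher in 7 of 7 and kept without each conceptus in turn.

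The genes with the largest rises, taken as the 12 highest among called genes of at least 1 log2 CPM that moved the same way in 7 of 7 conceptuses, were HBA (4.15), MFSD2A (2.95), PDE2A (2.86), PPP1R27 (2.80), PYY (2.46), CYP26B1 (2.33), CAV1 (2.18), ENDOU (2.15), S1PR5 (2.05), TMEM88 (2.05), ANKRD1 (1.96) and AKAP12 (1.94). MFSD2A, a carrier of lysophospholipids with docosahexaenoic acid, was at 0.0854, 0.576 and 1.37 CPM in mono-culture and 0.789, 5.93 and 22.6 CPM in co-culture (SE 0.66, adjusted p = 0.0233). PYY, a gut peptide hormone, differed widely between conceptuses: mono-cultured sections of conceptuses 47 and 71 were at 26.7 and 2.45 CPM and their co-cultured sections at 27.1 to 147 CPM, while the other co-cultured sections were at 0.566 to 5.97 CPM (adjusted p = 0.00704). CYP26B1, which degrades retinoic acid, had medians of 0.674 and 3.23 CPM (adjusted p = 0.0152), and AKAP12, a kinase anchor, 40.9 and 124 CPM (adjusted p = 0.00704). Groups of all 12 overlapped. Without the conceptuses named, calls were lost for MFSD2A and PPP1R27 (8, 26, 47 or 71), S1PR5 (8, 26, 47, 66 or 71) and ANKRD1 (8 or 71).

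The 12 lowest by the same rule were OLIG1 (-2.98), GAS1 (-1.93), MAB21L2 (-1.78), DOCK8 (-1.71), DKK1 (-1.66), IFNT2 (-1.63), MXRA5 (-1.58), PDZRN3 (-1.54), PRRG4 (-1.54), CFAP206 (-1.53), SEMA5A (-1.51) and LSS (-1.50). OLIG1, known as a factor of glial cells, was at 6.74, 12.6 and 149 CPM in mono-culture and 0.309, 1.23 and 26.4 CPM in co-culture (SE 0.36, adjusted p = 0.00704), and only the co-cultured section of conceptus 50 was above the lowest mono-cultured one. GAS1, a membrane partner of hedgehog signaling, was at 1.95 to 4.78 and 0.180 to 1.83 CPM without overlap (adjusted p = 0.0172). PDZRN3, a ubiquitin ligase, and PRRG4, a membrane protein, did not overlap either, at 3.60 to 6.43 against 1.02 to 2.99 CPM and 16.1 to 41.8 against 3.92 to 15.5 CPM (adjusted p = 0.00930 and 0.00704). DKK1, an inhibitor of Wnt signaling, fell from a median of 10.3 to 3.83 CPM (adjusted p = 0.0127), and LSS, which closes the sterol ring in cholesterol synthesis, from 26.2 to 9.38 CPM (adjusted p = 0.0433). Calls were lost for GAS1 and DOCK8 (without conceptus 8, 47 or 71), SEMA5A (8, 26, 47 or 71) and LSS (8, 26, 47, 66 or 71).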

How the data were processed

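Polyadenylated RNA of sections and explants was sequenced after 12 h of culture. The deposited values are raw counts of reads per gene: the authors trimmed reads (Trimmomatic), aligned conceptus reads with HISAT2 and endometrial reads with STAR to ARS-UCD1.2, and counted with featureCounts. Libraries came from a stranded kit. No source used here gives tool versions, the strand setting of the counting or any filter behind the conceptus table. That table holds 16149 genes, 2031 of them without a symbol.

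Counts of the 2 co-cultures of conceptuses 26 and 47 were summed, giving 14 columns, 7 of each culture. Genes passing filterByExpr (minimum count 10, minimum total 15) of edgeR 4.0.16 in R 4.3.3 were scaled by TMM and fitted with the robust quasi-likelihood model with the conceptus as block, and p-values were adjusted by Benjamini-Hochberg over all 14722 genes. Standard errors are the size of the log2 fold change over the square root of F. Medians and ranges of CPM are over the 16 single libraries. Principal component scores (log2 CPM, prior count 2) and marker sums (log2 of CPM plus 1) were tested by exact two-sided sign-flip permutation over the 7 conceptuses (128 patterns). Alternatives used limma 3.58.1 and DESeq2 1.42.0.

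The pairing comes from the conceptus number in the library names. With group means removed, sections of 1 conceptus correlated above 0.1 in 9 of 9 pairs (lowest 0.104, median 0.477), against a median of -0.136 between different conceptuses. Removing group means itself lowers correlations between different conceptuses. Of the 9 co-cultured sections, 5 correlated best with the mono-cultured section of their own conceptus.

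Described genes are the 12 largest and 12 smallest log2 fold changes among symbol-bearing called genes that averaged at least 1 log2 CPM and moved in the same direction in 7 of 7 conceptuses, up to 4 called members of each list by smallest adjusted p, the conceptus genes the study names, and defining markers of the cell types. The other list members named, among them HSPA5, PDIA4, HSP90B1, VEGFA, SLC2A1, HK2, RRM2 and ALAS2, were described after their values were seen. Members and lists were chosen with earlier results of these data known. Conceptus 5 and the other endometrial libraries were not used here.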

Additional observations from a re-analysis of the deposited data

Results flagged for a closer look

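Over 184 sets of values, 12 held a value far from the others, where chance gives about 1 in 20. Most sets were 7 differences (co-cultured minus mono-cultured, log2 scale, 1 value per conceptus). The others were total counts and TMM factors of libraries and differences in component scores. All 12 that were flagged were differences on the log2 scale. Conceptus 50 was the distant one in 6. It was at -0.122 in ERO1A (the others 1.27 to 1.89), at -0.153 in DERL3 (0.949 to 1.74), at -0.246 in TGFB1 (1.14 to 2.09), at 0.0692 in POLR1A (-1.14 to -0.633) and at 0.165 in DOLK (-1.12 to -0.637). Its median over the type I interferon receptor and signalling list was -0.315 (0.167 to 0.38).

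Conceptus 66 was far above the others in ANKRD1, at 4.73 (0.768 to 2.2), and in the median of the hypoblast list, at 1.34 (-0.563 to 0.128). Conceptus 22 was at 3.64 in the median of the erythroid list (0.441 to 1.6), at 0.0262 in TIMP2 (0.477 to 0.762) and at -0.226 in PHLDA3 (-2.14 to -1.32). Conceptus 47 was at 1.73 in MRPL17 (0.512 to 1.03).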

How the results depend on the processing

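With 16 single libraries, 259 genes were more and 256 less abundant without the conceptus block and 323 and 320 with it, against 1157 and 1069 with summed co-cultures and the block. DESeq2 called 1935 and 1860, library totals 559 and 2034, and culture sets taken as the unit 433 and 763 (36.2% more). Leaving out a conceptus or a culture set gave 0 to 1374 more and 0 to 1252 less, the 0 being without conceptuses 8 and 26. With 1 co-culture each on uteri 14 and 19, chosen after seeing the data, 487 and 414 were called. None of 131 genes followed through the 22 alternatives (20 planned) reversed direction. Their calls were the same in 2218 comparisons, lost in 651 and gained in 13. Most of these genes were chosen for being called in the main fit, and the alternatives reuse its libraries. Agreement in direction was thus largely set by the choice, and genes not so chosen were not followed.

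Under library totals the list medians were -0.307 for the unfolded protein response, -0.0327 for N-linked glycosylation, 0.128 for HIF factors, -0.00101 for the TCA cycle, 0.0464 for translation factors, -0.373 for the cell cycle, -0.365 for DNA repair, -0.0258 for oxidative stress defence and -0.118 for metal ion transport, which was -0.119 with a factor of unwanted variation and no block. Leaving out conceptuses or sets moved HIF factors between 0.143 and 0.385, metal ion transport between -0.191 and 0.0874, and endothelium between 0.424 and 1.15 (0.480 with no block). The summed embryonic disc markers turned to -0.147 under library totals and to -0.0337 and -0.0655 without conceptus 8 or 66 (-0.0655 to 0.104 over all conceptuses left out), and the secreted trophoblast products to 0.154, 0.0473 and 0.0830 without conceptus 50, 66 or 71 (-0.287 to 0.154 over all). The causes were not tested.

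The 7 conceptuses come from 4 culture sets, and the calls depend on single conceptuses as given above.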
